A study of Rattus norvegicus with 12 samples.

Results

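The genes described here are 10 of the base excision repair and poly(ADP-ribose) polymerase (PARP) pathway, out of 18166 named genes measured on the arrays. They were chosen by symbol from the pathway, with earlier results of these data known: the DNA glycosylases Ogg1, Neil1 and Mutyh, the abasic-site endonuclease Apex1, the repair polymerase Polb, the scaffold Xrcc1 with its ligase Lig3, the polymerases Parp1 and Parp2, and the hydrolase Parg. Each of the 10 symbols had exactly 1 probe on the array, and no probe was shared with another gene. The study followed primary rat (Rattus norvegicus) cardiomyocytes, labelled wild type and cultured in DMEM/F12 with 20% FBS and 5% horse serum, after SIN-1, which the labels describe as a peroxynitrite donor and spell 3-morpholinosydnoimine. A control group and groups exposed to SIN-1 for 70 min, 4 h and 8 h had 3 one-colour whole-transcript arrays each, 12 in all, called biological triplicates in the design text. The sources used here do not give the dose of SIN-1, a vehicle or a culture time for the control, or whether the 3 samples of a group came from separate cultures, so the p-values measure the spread between these samples, which may be technical. The 3 treated times share their 3 control arrays. All values are log2 expression; a value of 1 probe is not set against that of another.

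The defining markers of cardiomyocytes were low in all groups. Of 10 measured markers of that cell type, 7 had a mean under 5 on the log2 scale over all arrays, from Myh7 at 3.57 to Tnnt2, the cardiac troponin T gene, at 5.84, while the median of all probes without an annotated gene was 4.34. The mean of these 10 markers ran from 4.48 to 4.89 over the 12 arrays. Of 12 fibroblast and matrix markers 1 had a mean under 5, and the highest was Vim, the intermediate filament vimentin, at 13.13. The labels' name, cardiomyocytes, is therefore given as a label, and no cell type is assigned to these cells here. In such bulk RNA, fewer cells of a type and less of a transcript in each cell cannot be told apart. The array medians over all probes ran from 5.00 to 5.05 in control, from 5.00 to 5.12 at 70 min, from 4.98 to 5.09 at 4 h and from 4.99 to 5.01 at 8 h, and the 3 highest were those of 70 min replicates 2 and 3 and of 4 h replicate 3.

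Base excision repair removes small oxidised, deaminated or alkylated bases from DNA. A glycosylase cuts out the base, an endonuclease opens the strand at the abasic site, and a polymerase and a ligase fill and seal the gap, either by replacing the single nucleotide (the short patch of Polb, Xrcc1 and Lig3) or by displacing a longer flap with replication proteins. Parp1 and Parp2 bind the broken strand and build chains of ADP-ribose from NAD, which recruit Xrcc1, and Parg takes the chains apart. Peroxynitrite oxidises guanine and breaks DNA strands, and strong activation of Parp1 by such breaks is a long-studied route to NAD loss in injured heart muscle.

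The promoters of Apex1 and Xrcc1 are shown because these members, with Polb, differed from control after SIN-1. They are the 300 bases from 250 before to 50 after the gene's start, from RefSeq on the assembly GRCr8. Of the 10 genes 9 were matched there, and Polb, which had no entry, was not searched. The motifs searched, on both strands, were the E-box (CACGTG), the NRF1 motif, the core of the antioxidant response element (TGACNNNGC), the CRE (TGACGTCA), the CCAAT box, the GC box (GGGCGG) and the E2F motif (TTTCCCGC). In the first sequence capitals mark the E-box, and in the second the NRF1 match, which reads on the opposite strand. Each lies on the plus strand, Apex1 at chr15:26617976-26618275 and Xrcc1 at chr1:89268939-89269238.
Apex1: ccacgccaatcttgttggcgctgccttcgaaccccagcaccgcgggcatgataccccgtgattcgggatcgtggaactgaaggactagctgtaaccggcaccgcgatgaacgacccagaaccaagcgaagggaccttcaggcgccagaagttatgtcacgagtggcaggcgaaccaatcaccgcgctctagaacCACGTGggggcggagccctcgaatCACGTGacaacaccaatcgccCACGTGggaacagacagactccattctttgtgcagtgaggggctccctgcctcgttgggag
Xrcc1: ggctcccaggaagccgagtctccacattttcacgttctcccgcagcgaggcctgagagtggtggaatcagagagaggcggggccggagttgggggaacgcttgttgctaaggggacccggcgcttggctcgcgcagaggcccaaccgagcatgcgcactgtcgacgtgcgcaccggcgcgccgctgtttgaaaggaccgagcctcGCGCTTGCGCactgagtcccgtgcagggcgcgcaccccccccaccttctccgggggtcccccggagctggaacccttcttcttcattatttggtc

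Apex1 held the E-box 3 times, from 56 to 51, from 32 to 27 and from 11 to 6 bases before its start, with no overlap with another motif searched. An E-box was in 6.42% of 33469 promoters of the same length, and among the members Lig3 also held 1. Apex1 further held 3 CCAAT boxes and 1 GC box, which occurred in 37.5% and 33.1% of all promoters. Xrcc1 held the NRF1 motif once, from 45 to 36 bases before its start. This motif occurred in 4.25% of promoters and, among the members, also once in Lig3. The antioxidant response core, in 12.1% of promoters, was found in 1 member, Mutyh. The CRE, in 1.83%, and the E2F letters, in 0.974%, were in 0 of the 9 member promoters. Of the other members, Parp1 held 3 GC boxes, Parp2, Ogg1, Lig3 and Mutyh held 1 each, and Ogg1 and Mutyh each held 1 CCAAT box. A match is a run of letters and not a measured site.

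After 70 min of SIN-1, Polb and Xrcc1 fell and Apex1 rose, while the glycosylases, Lig3, Parp1, Parp2 and Parg did not pass the test. Thus 1 of 10 members was called higher and 2 lower at an adjusted p under 0.05 in limma's moderated test, where 14.6% of all genes were called, 6.76% higher and 7.81% lower. The split over all genes moved with the scaling, from 1228 higher and 1419 lower to 683 and 1371 with arrays centred on their medians. The median member differed by -0.10 on the log2 scale, against 0.03 for all genes. At 4 h Xrcc1 alone of the members was called, lower than control, where 3.85% of all genes were called, 2.08% higher and 1.77% lower. At 8 h no member was called with limma, nor was any at an unadjusted p under 0.05, and the background was 0.0275% of all genes, 0.022% higher and 0.0055% lower. Over the 4 groups the F test called 2 of 10 members, Polb and Xrcc1, against 15.3% of all genes.

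**Figure D1:**
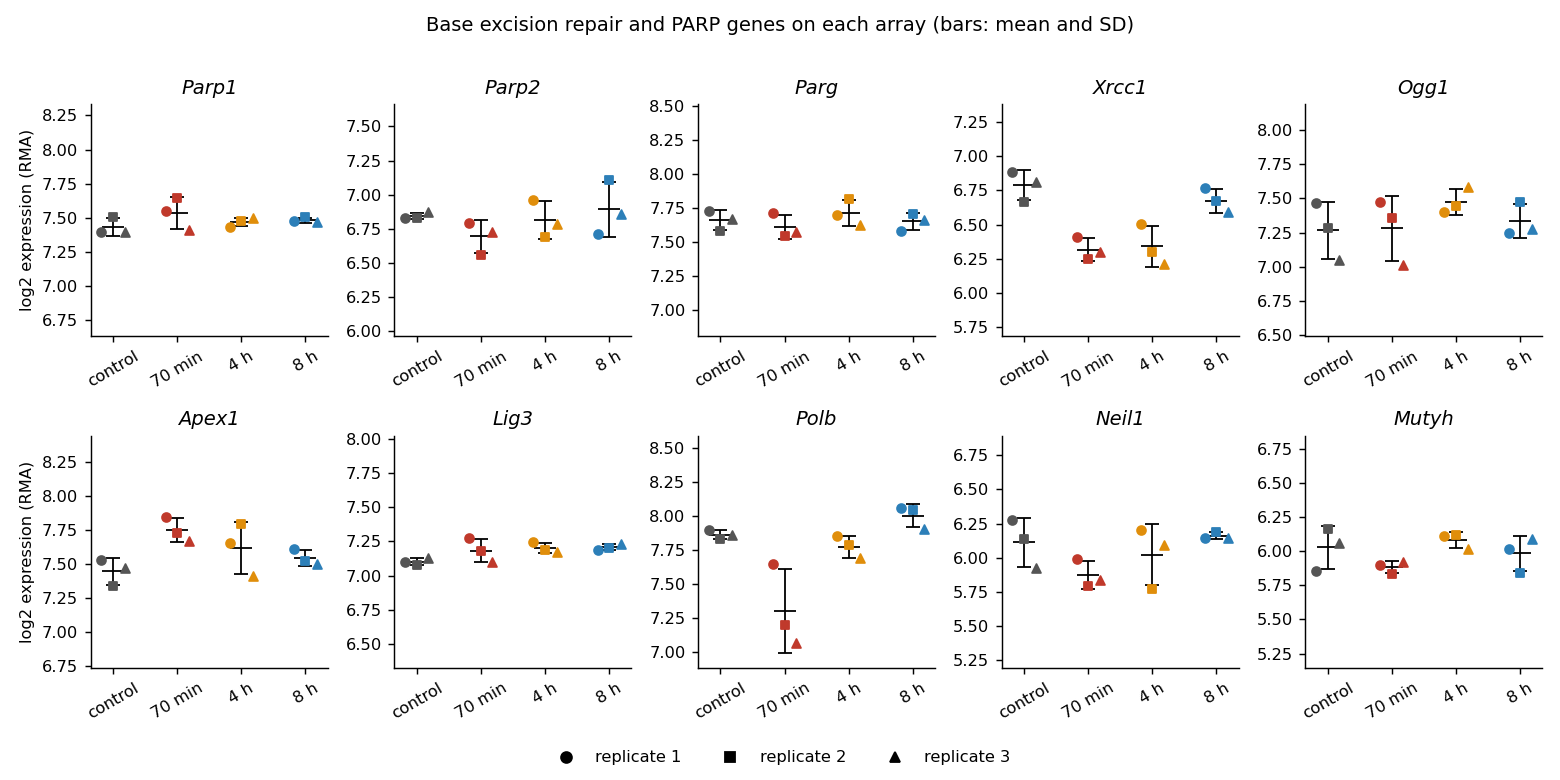
Log2 expression of each of the 10 genes on the 12 arrays, 1 panel a gene, with the 4 groups along the horizontal axis; points are arrays (the symbol gives the replicate) and bars the mean and SD. Polb is lowest on the 3 arrays of 70 min, Xrcc1 on those of 70 min and 4 h, and the other panels show smaller or overlapping differences.

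Polb is the polymerase that fills the single-nucleotide gap and trims the sugar left at its edge. Its log2 values were 7.90, 7.83 and 7.86 in control, 7.65, 7.20 and 7.06 at 70 min, 7.85, 7.79 and 7.69 at 4 h, and 8.06, 8.04 and 7.90 at 8 h. All 3 arrays of 70 min lay below every other array, those of 4 h overlapped the control, and those of 8 h lay just above it. Of all genes, 31.8% at 70 min and 13.2% at 8 h did not overlap the control in either direction. The mean was 7.86 ± 0.03 (SD, n = 3) in control and 7.30 ± 0.31 at 70 min. Polb was thus lower at 70 min by 0.56 on the log2 scale (log2 fold change -0.56, SE 0.115, 95% interval -0.80 to -0.32, limma adjusted p = 0.00276), a change of -32.1%. The spread was widest at 70 min, where replicate 1, the array of that group with the lowest array median, held the highest Polb value. With array medians entered as a covariate, Polb differed by -0.40 (limma adjusted p = 0.0078). Without the 3 arrays of highest median, which leaves only replicate 1 at 70 min, it was -0.21, a size given without a test. The call held when any single array was left out.

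Polb then rose again within the treated series. From 70 min to 4 h it was higher by 0.47 (SE 0.115, limma adjusted p = 0.0172), a change of 38.5%, the only member called in a comparison that called 7.63% of all genes, 4.48% higher and 3.15% lower, and in which 21% did not overlap. Over all genes that is 814 higher and 572 lower, against 738 and 270 with centring and 504 and 578 with array medians as covariate. From 70 min to 8 h it was higher by 0.70 (SE 0.115, limma adjusted p = 0.000398), a change of 62.0%, where 16% of all genes were called, 9.56% higher and 6.43% lower. There the split was 1736 higher and 1168 lower, against 1971 and 589 with centring and 922 and 1007 with the covariate. From 4 h to 8 h the arrays did not overlap, as for 18.7% of all genes, but the difference of 0.23 missed the threshold (limma adjusted p = 0.397). Against control the value at 4 h was -0.09 and at 8 h 0.14, with 95% intervals of -0.33 to 0.15 and -0.11 to 0.38. The call from 70 min to 4 h ended without 70 min replicate 2 or 3 (limma adjusted p = 0.0831 and 0.106), and likewise when 4 h replicate 1 or 2 was dropped (0.0621 and 0.0531). Without the 3 arrays of highest median, which leaves 1 array at 70 min, the differences from 70 min were 0.17 at 4 h and 0.35 at 8 h.

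Xrcc1 has no enzyme activity of its own and holds Polb, Lig3 and end-processing enzymes at a break. Its log2 values were 6.89, 6.67 and 6.81 in control, 6.41, 6.25 and 6.30 at 70 min, 6.51, 6.30 and 6.21 at 4 h, and 6.77, 6.67 and 6.59 at 8 h. Every array of 70 min and 4 h lay below every control array, and 8 h overlapped the control. No overlap with control, in either direction, was seen in 31.8% of all genes at 70 min and 20.3% at 4 h. At 70 min Xrcc1 was lower, with a log2 fold change of -0.47 (SE 0.105, 95% interval -0.70 to -0.25, limma adjusted p = 0.00503), a change of -28.0%. At 4 h it was still lower, by a log2 fold change of -0.45 (SE 0.105, 95% interval -0.67 to -0.23, limma adjusted p = 0.0222), a change of -26.8%. At 8 h the difference was -0.11 (95% interval -0.34 to 0.11). The 70 min call held when any single array was left out. Without the 3 arrays of highest median, which leaves 1 array at 70 min, the 70 min difference was -0.38. The 4 h call ended without control replicate 1 or 3 (limma adjusted p = 0.122 and 0.0833), when 4 h replicate 2 or 3 was dropped (0.0665 and 0.0826), and without the 3 arrays of highest median (-0.39, 0.0839).

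Between the treated times Xrcc1 differed little from 70 min to 4 h (0.02, 95% interval -0.20 to 0.25). From 70 min to 8 h it rose by 0.36 (SE 0.105, limma adjusted p = 0.0268), a change of 28.2%. With Polb it made up the 2 of 10 members called in that comparison, where 16% of all genes were called, 9.56% higher. From 4 h to 8 h no member was called with limma, 1 of the 10 had an unadjusted p under 0.05, and 3.51% of all genes were called, 1.97% higher and 1.54% lower (358 and 279 genes, against 199 and 101 with centring). That member was Xrcc1, whose arrays did not overlap, as for 18.7% of all genes, and whose difference was 0.34 (limma adjusted p = 0.101). The call from 70 min to 8 h was lost without 70 min replicate 2 or 3 (limma adjusted p = 0.0932 and 0.0803). It was also lost when 8 h replicate 1 or 2 was dropped (0.0966 and 0.0764) and with array medians as covariate (0.24, 0.234). Without the 3 arrays of highest median, which leaves 1 array at 70 min, the difference was 0.27.

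Apex1, the endonuclease that opens the strand at the abasic site and in mammals also acts as a redox partner of transcription factors, moved the other way. Its log2 values were 7.53, 7.34 and 7.47 in control, 7.84, 7.73 and 7.67 at 70 min, 7.65, 7.79 and 7.41 at 4 h, and 7.61, 7.52 and 7.50 at 8 h. The arrays of 70 min lay above all control arrays, where 31.8% of all genes did not overlap in either direction. Those of 4 h and 8 h overlapped the control. At 70 min Apex1 was higher by 0.30 (SE 0.097, 95% interval 0.10 to 0.51, limma adjusted p = 0.0470), a change of 23.2%. This call was close to the threshold, and leaving out any 1 of the 6 arrays compared ended it (limma adjusted p from 0.0646 to 0.169). It also ended with arrays centred on their medians (0.25, limma adjusted p = 0.231) and without a trend in the prior variance (0.0838). Without the 3 arrays of highest median, which leaves 1 array at 70 min, the difference was 0.40. With array medians entered as a covariate, Apex1 was called (limma adjusted p = 0.0031). At 4 h the difference was 0.17 (limma adjusted p = 0.449) and at 8 h 0.10 (0.975). From 70 min to 8 h the arrays did not overlap, as for 30.9% of all genes, with a difference of -0.20 (limma adjusted p = 0.180). That difference was called with array medians as covariate (-0.37, limma adjusted p = 0.0148) and after a further quantile normalization (-0.26, 0.0370).

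**Figure D2:**
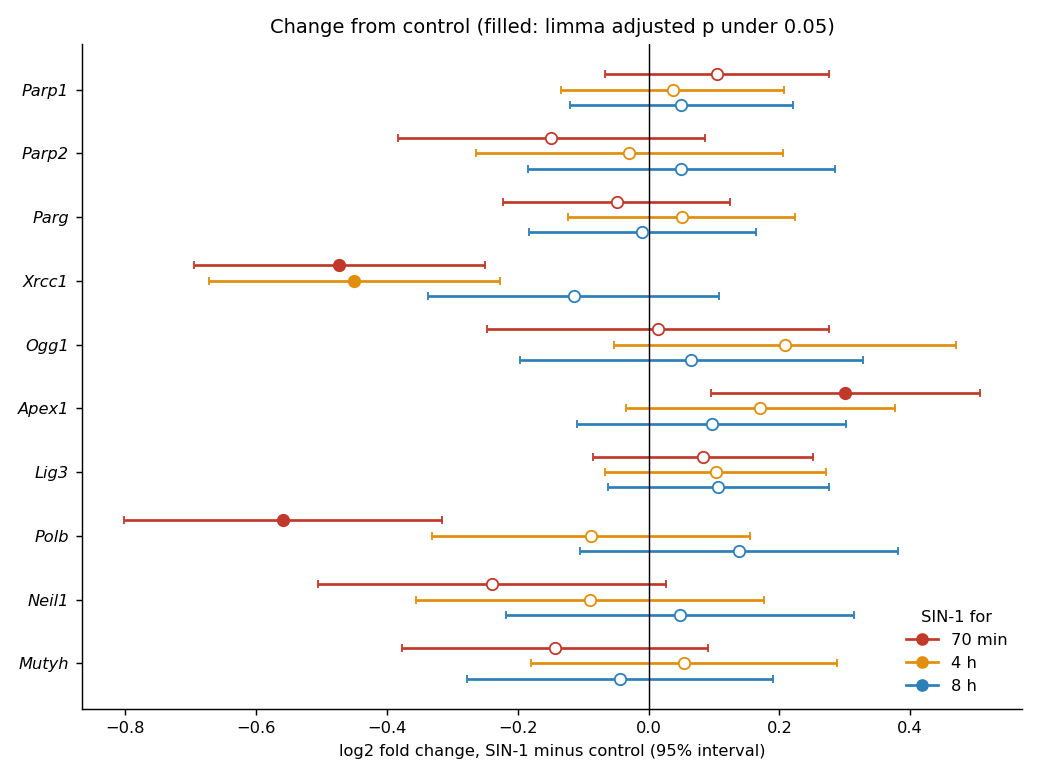
Log2 fold change against control for each of the 10 genes at 70 min, 4 h and 8 h, with the 95% interval of the fitted model as bars; filled points were called by limma. Polb and Xrcc1 at 70 min and Xrcc1 at 4 h lie below 0, Apex1 at 70 min lies above 0, and no gene was called at 8 h.

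The 3 glycosylases recognise oxidised bases in different settings. Ogg1 removes oxidised guanine opposite cytosine, Mutyh removes adenine misplaced opposite oxidised guanine, and Neil1 removes oxidised pyrimidines and ring-opened purines. None was called in any of the 6 comparisons with limma, and only Neil1 from 70 min to 8 h had an unadjusted p under 0.05. Ogg1 was 7.47, 7.29 and 7.05 in control, 7.48, 7.36 and 7.01 at 70 min, 7.40, 7.45 and 7.58 at 4 h, and 7.25, 7.48 and 7.27 at 8 h. The control and 70 min arrays covered about the same range, and all groups overlapped, with 4 h replicate 3 the highest array. Its difference from control was 0.01 at 70 min (95% interval -0.25 to 0.28) and 0.21 at 4 h (95% interval -0.05 to 0.47, limma adjusted p = 0.474).

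Neil1 was 6.28, 6.14 and 5.92 in control, 5.99, 5.80 and 5.84 at 70 min, 6.21, 5.77 and 6.09 at 4 h, and 6.14, 6.19 and 6.15 at 8 h. The 8 h arrays lay close together and above all of 70 min, where 30.9% of all genes did not overlap, while 4 h overlapped every group. Its value at 70 min was -0.24 against control (95% interval -0.51 to 0.03, limma adjusted p = 0.231), and from 70 min to 8 h 0.29 (95% interval 0.02 to 0.55, limma adjusted p = 0.142). Mutyh was 5.85, 6.17 and 6.06 in control, 5.90, 5.84 and 5.92 at 70 min, 6.11, 6.12 and 6.02 at 4 h, and 6.02, 5.84 and 6.09 at 8 h. Control replicate 1 was as low as the 70 min arrays, and the 4 h arrays lay above those of 70 min, where 21% of all genes did not overlap. Mutyh differed from control by -0.14, 0.05 and -0.04 at the 3 times (limma adjusted p = 0.443, 0.891 and 0.994).

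Lig3 seals the nick in the short patch and, without Xrcc1, in mitochondrial DNA. It was 7.10, 7.07 and 7.13 in control, 7.27, 7.18 and 7.10 at 70 min, 7.25, 7.19 and 7.17 at 4 h, and 7.19, 7.20 and 7.23 at 8 h. The arrays of 4 h and of 8 h all lay above those of control, which held for either direction in 20.3% and 13.2% of all genes. The differences were small: 0.08, 0.10 and 0.11, with limma adjusted p = 0.545, 0.618 and 0.947. The upper end of the 95% interval was 0.28 at 8 h.

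Parp1, the main producer of ADP-ribose chains after strand breaks, was 7.40, 7.51 and 7.39 in control, 7.55, 7.65 and 7.41 at 70 min, 7.44, 7.47 and 7.50 at 4 h, and 7.48, 7.50 and 7.47 at 8 h. The 4 groups overlapped. Its differences from control were 0.10 at 70 min (95% interval -0.07 to 0.28, limma adjusted p = 0.441), 0.04 at 4 h (-0.13 to 0.21, 0.901) and 0.05 at 8 h (-0.12 to 0.22, 0.991). Parp2, which shares this role at a lower output, was 6.83, 6.83 and 6.87 in control, 6.80, 6.56 and 6.73 at 70 min, 6.96, 6.69 and 6.79 at 4 h, and 6.71, 7.11 and 6.86 at 8 h. All 70 min arrays lay below the controls, as in 31.8% of all genes in either direction, and the later groups spread to both sides. The difference at 70 min was -0.15 (95% interval -0.38 to 0.09, limma adjusted p = 0.424).

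Parg was 7.73, 7.58 and 7.67 in control, 7.71, 7.55 and 7.58 at 70 min, 7.70, 7.81 and 7.62 at 4 h, and 7.59, 7.70 and 7.67 at 8 h. All groups overlapped. It differed from control by -0.05, 0.05 and -0.01, the last with a 95% interval of -0.18 to 0.16. Parp2 and Apex1 lie on the same chromosome in the RefSeq gene table of GRCr8, with 3 protein-coding genes starting between them. At 70 min Parp2 stood at -0.15 and Apex1 at 0.30.

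Among the uncalled members the 95% intervals reached from -0.51 (Neil1) to 0.28 (Ogg1) at 70 min, from -0.36 (Neil1) to 0.47 (Ogg1) at 4 h and from -0.34 (Xrcc1) to 0.38 (Polb) at 8 h. The group means of Polb spanned 0.70 on the log2 scale, those of Xrcc1 0.47 and those of Apex1 0.30. The F test over groups gave a limma adjusted p of 0.00169 for Polb, 0.00596 for Xrcc1 and 0.163 for Apex1, and from 0.357 for Neil1 to 0.819 for Parg in the rest. The order of the group means differed between these 3 genes, which was not tested between genes. Polb was lowest at 70 min, with control, 4 h and 8 h not separated by the test. Xrcc1 was low at 70 min and 4 h with no difference between those beyond their spread. Apex1 was highest at 70 min, with the differences from 4 h and 8 h not called in the fit described.

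By the root mean square difference of the 12 centred array values, a description with no test, the genes most like Polb were Tmem19 (0.0700), Abcb6 (0.0740) and Galm (0.0791). Those most like Xrcc1 were Itga11 (0.0758), Hbegf (0.0787) and Zfp36l2 (0.0814). Those most like Apex1 were Tmem123 (0.0497), Prmt7 (0.0539) and Eloc (0.0543). None of these 9 genes is a member or on a pathway list used here.

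**Figure D3:**
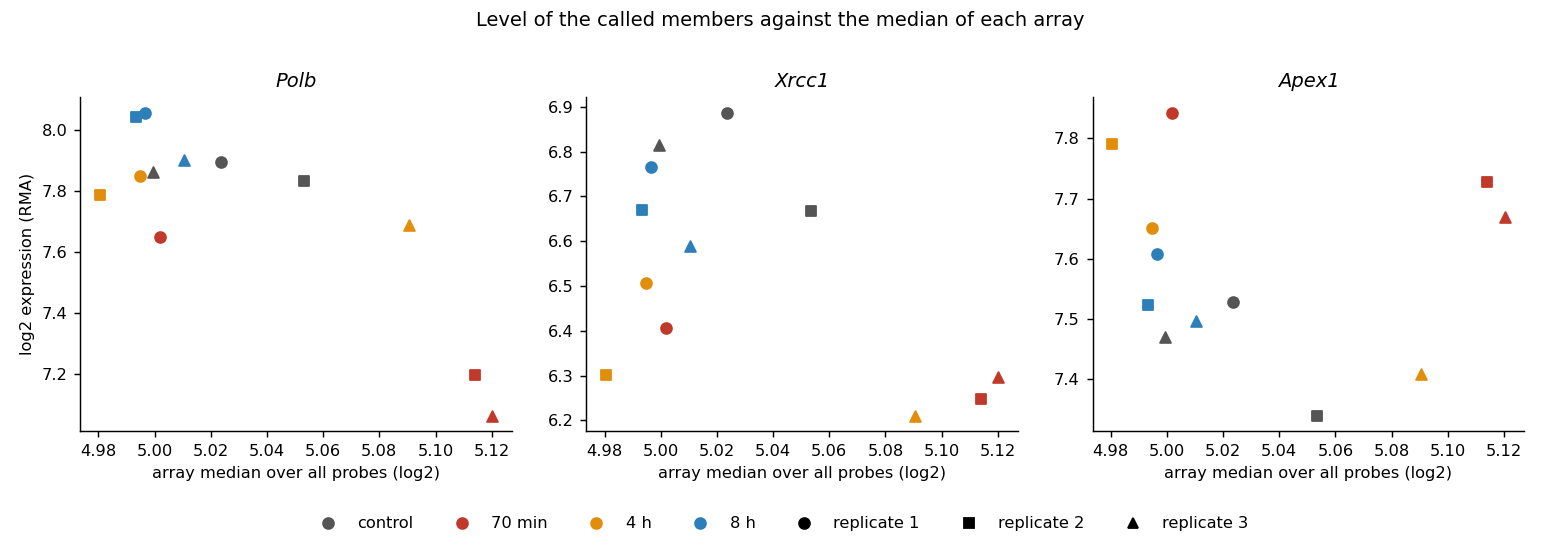
Log2 expression of Polb, Xrcc1 and Apex1 on each array against that array's median over all 36685 probes, with colours for the 4 groups and symbols for the replicates. The arrays 70 min replicates 2 and 3 and 4 h replicate 3 stand at the right with medians of 5.09 to 5.12, and the lowest 2 Polb values are among them.

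Other genes of DNA repair, PARP and NAD metabolism, with S phase genes beside them, were read from 12 lists with 134 genes, of which 114 were measured. At 70 min 23 of these 114 were called higher and 16 lower, where 6.76% and 7.81% of all genes were. At 4 h 20 were called higher and 0 lower, where 2.08% and 1.77% of all genes were. The 14 measured S phase and mitosis genes are not repair genes and supply 7 of the higher calls at each time: in the other 100 genes 16 rose and 16 fell at 70 min and 13 rose and 0 fell at 4 h. At 8 h 0 of the 114 were called in either direction with limma, where 7 had an unadjusted p under 0.05. The median log2 fold change of the 114 was 0.02, 0.11 and 0.02 at the 3 times, against 0.03, 0.01 and 0.01 for all genes.

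In the 17 measured genes of long-patch synthesis, flap removal and ligation, 8 rose and 1 fell at 70 min, with a list median of 0.30. Of all genes, 6.76% were called higher and 7.81% lower at that time. Fen1, which cuts the displaced flap, rose by 0.99 ± 0.11 (SE, limma adjusted p = 1.02e-05), and Pcna, the sliding clamp, by 0.83 ± 0.07 (5.1e-07). Pold2, a subunit of the replicative polymerase delta, rose by 0.62 and Rpa2, of the single-strand binding complex, by 0.47. The 1 that fell, named after its value was seen, was Poll, a gap-filling polymerase of the same family as Polb (-0.40, limma adjusted p = 0.0474). Of the 6 arrays left out in turn its call held only without control replicate 3 (otherwise 0.073 to 0.224), and it ended without a trend in the prior variance (0.0621). Rfc5, a clamp loader, rose by 0.47 and Pole, the catalytic subunit of polymerase epsilon, by 0.44. At 4 h 9 rose and 0 fell, led by Pcna (0.65), Rpa2 (0.62), Fen1 (0.58), Rfc5 (0.49), Pold2 (0.47) and Rfc4 (0.44). The shares of all genes were then 2.08% higher and 1.77% lower. At 8 h 0 were called with limma or at an unadjusted p under 0.05, and Fen1 fell by 0.91 from 70 min to 8 h (limma adjusted p = 1.92e-05). At 70 min the calls of Pole (without control replicate 2, limma adjusted p = 0.0684) and Rfc5 (without control replicate 1 or 70 min replicate 2, 0.0822 and 0.0756) ended, with log2 fold changes of 0.38, 0.37 and 0.35. Rpa1, also called higher at 70 min, kept its call in 4 of 6 fits without 1 array (limma adjusted p up to 0.0573). Lig1 kept its 70 min call in 1 of 6 (up to 0.101), and Fen1, Pcna, Pold2 and Rpa2 kept theirs in all 6. The 4 h count was 5 without control replicate 1 or 3, and 4 without control replicate 2 or 4 h replicate 1 or 2, and the calls of Rfc4 and Rfc5 were among those that ended (limma adjusted p up to 0.253 and 0.160). With arrays centred on their medians it was also 4. These genes also serve DNA replication: in the 14 measured S phase and mitosis genes 7 rose at 70 min and 7 at 4 h, led by the subunits of the replicative helicase: Mcm5 by 1.06 and 0.72, Mcm6 by 0.93 and 0.80, Mcm4 by 0.83 and 0.60, Mcm2 by 0.78 and 0.61, Mcm7 by 0.78 and 0.49 and Mcm3 by 0.72 and 0.55. The remaining call was Rrm2 at 70 min (0.45) and Tyms at 4 h. The mitosis and proliferation genes Mki67, Top2a, Ccnb1, Cdk1, Aurka and Bub1 were not called at either time. At 70 min the group means of Mki67, Top2a, Aurka and Bub1 lay below control, and those of Ccnb1 and Cdk1 above it. At 4 h only Mki67 lay below control. For these uncalled genes the F test over groups gave a limma adjusted p from 0.105 (Mki67) to 0.695 (Bub1). The mean of the whole list ran from 7.87 to 8.00 over the control arrays, 8.22 to 8.45 at 70 min, 8.24 to 8.38 at 4 h and 7.81 to 7.91 at 8 h. The part of this in the values of Apex1, Polb and Xrcc1 was not tested.

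**Figure D4:**
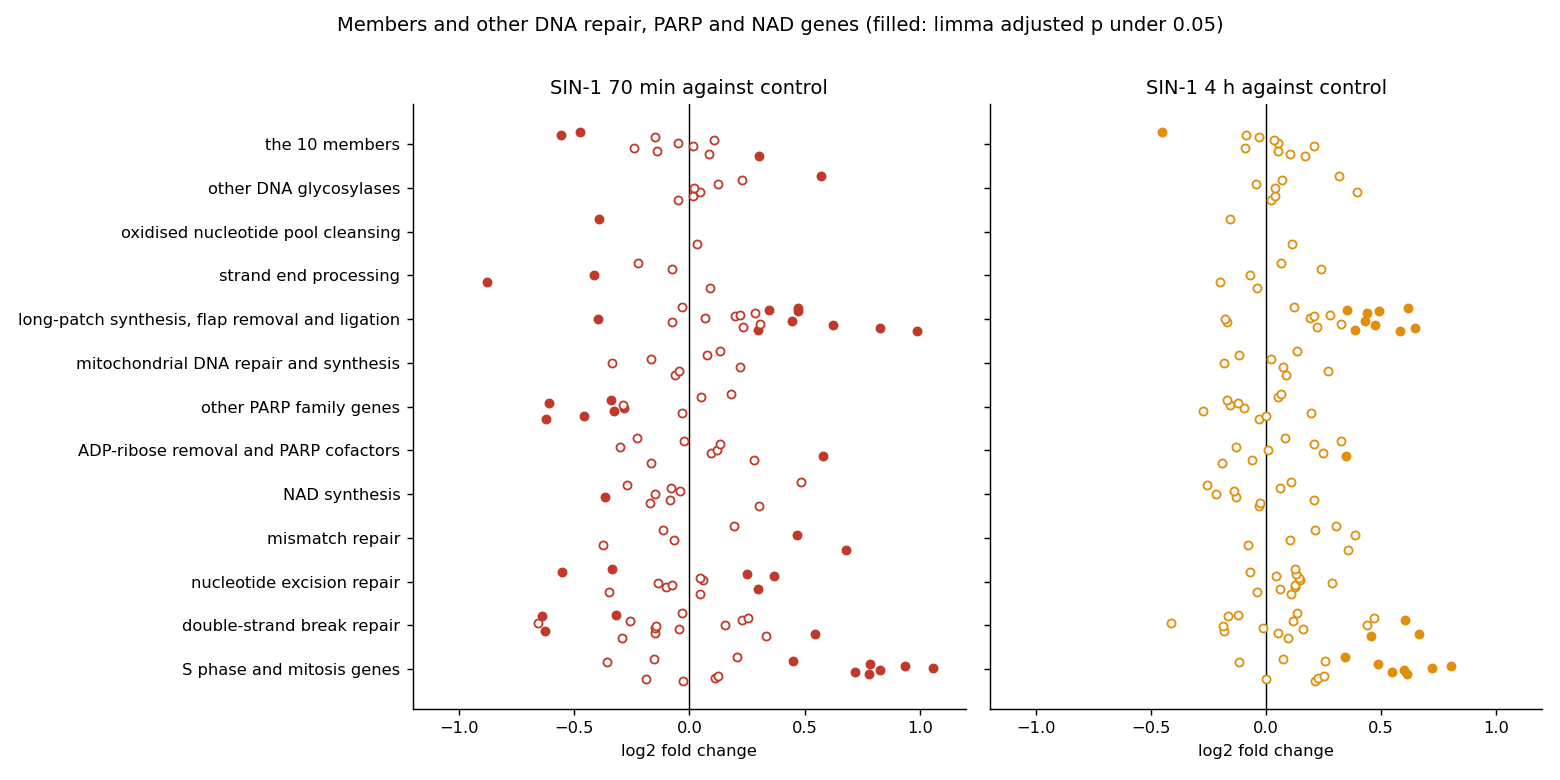
Log2 fold change against control (horizontal axis) at 70 min (left) and 4 h (right) of the 10 members and of each measured gene of the 12 pathway lists, 1 point a gene, filled where called by limma. Called genes of the long-patch and S phase lists lie above 0 at both times, except Poll at 70 min, and those of the other PARP family below 0 at 70 min.

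Over all genes 6.76% were called higher and 7.81% lower at 70 min, and 2.08% and 1.77% at 4 h. Among 10 other measured PARP family genes, 6 fell and 0 rose at 70 min, with a list median of -0.31. These were Parp11 (-0.62, SE 0.123, limma adjusted p = 0.00197), Parp9 (-0.61, SE 0.130, 0.00354), Parp14 (-0.46), Tnks (-0.34), Parp3 (-0.33) and Parp6 (-0.29). Parp9, Parp11 and Parp14 are known for roles in interferon and antiviral responses or single ADP-ribose transfer, Tnks encodes tankyrase, which acts at telomeres and in Wnt signalling, and Parp3 acts at double-strand breaks. At 4 h and 8 h 0 of the 10 were called against control with limma, where 2 and 0 had an unadjusted p under 0.05. From 70 min to 8 h 5 rose, Parp9 by 0.78 and Parp11 by 0.72, where 9.56% of all genes were called higher. Without the 3 arrays of highest median only 1 array of 70 min remains, and no count of calls is given there. The call of Parp14 ended without control replicate 1 (limma adjusted p = 0.0508), and that of Parp6 without any control array (0.141, 0.0534 and 0.166) and without 70 min replicate 2 or 3 (0.122 and 0.136). Of 10 other settings Parp6 kept its call in 3; it was lost, among others, with centring (-0.34, limma adjusted p = 0.0707) and with array medians as covariate (-0.21, 0.157). Of 9 measured genes that remove ADP-ribose or assist PARP enzymes, 1 rose at 70 min and at 4 h: Aimp2, an activator of Parp1 and a scaffold of tRNA synthetases, by 0.58 and 0.35. The 4 h call of Aimp2 ended without any control array or 4 h replicate 1 (limma adjusted p from 0.0506 to 0.114).

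The steps nearest to the members were mixed, and their counts stand beside 14.6% of all genes called at 70 min, 6.76% higher and 7.81% lower. Of 7 other DNA glycosylases 1 rose at 70 min, Ung, which removes uracil, by 0.57 (SE 0.134, limma adjusted p = 0.00756), and 0 were called at 4 h, where 2 had an unadjusted p under 0.05. Of 5 strand end processing genes 2 fell at 70 min, Aplf by a log2 fold change of -0.88 (SE 0.120, limma adjusted p = 7.64e-05) and Aptx by -0.41 (0.0231). Aplf reads ADP-ribose chains and brings ligation factors, and Aptx removes adenylates left by failed ligation. Of the 2 genes that cleanse oxidised nucleotides, Nudt18 fell (-0.39, limma adjusted p = 0.0202), and Nudt1, the oxidised dGTP hydrolase, stood at 0.03 (0.872). Of 7 mitochondrial genes 0 were called with limma against control at any time (2, 0 and 0 at an unadjusted p under 0.05), with Polg2 at -0.33 and Polg, the mitochondrial polymerase, at 0.22 at 70 min. In NAD synthesis 1 of 9 fell at 70 min, Naprt (-0.37, limma adjusted p = 0.0213). With fewer arrays some of these calls ended: that of Aptx without control replicate 1 or 3 or 70 min replicate 2 or 3 (log2 fold change -0.42 to -0.32, limma adjusted p from 0.0655 to 0.117), that of Nudt18 without control replicate 2 or 3 or 70 min replicate 3 (-0.38 to -0.31, 0.0669 to 0.110) and that of Naprt without control replicate 1 or 2 or 70 min replicate 3 (-0.37 to -0.28, 0.0629 to 0.113).

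In the neighbouring repair pathways the 70 min calls went both ways, where 6.76% of all genes were called higher and 7.81% lower. In mismatch repair 2 of 6 rose, Exo1 by 0.68 and Msh6 by 0.47. In nucleotide excision repair Gtf2h1 (0.37), Ercc1 (0.30) and Rad23b (0.25) rose and Xpa (-0.55) and Xpc (-0.33) fell, of 12 measured. In double-strand break repair Brca1 rose by 0.54, while Xrcc4 (-0.64), Lig4 (-0.62) and Xrcc5 (-0.32), of end joining, fell, of 16 measured. At 4 h 3 of these 16 rose, Brca1 by 0.66, Rad54l by 0.60 and Bard1 by 0.46, where 2.08% of all genes were called higher. The calls of Exo1, Rad23b and Xpa held when any single array was left out. At 70 min that of Msh6 ended without control replicate 2 or 70 min replicate 1 (limma adjusted p = 0.132 and 0.0822) and that of Xrcc4 without 70 min replicate 3 (0.0673). Those of Gtf2h1 (control replicates 1 and 2, 70 min replicate 1), Xpc (control replicates 1 and 3, 70 min replicate 3) and Lig4 (control replicates 1 and 3, 70 min replicates 2 and 3) each ended without any of the arrays given, with limma adjusted p from 0.0516 to 0.117. Those of Ercc1, Xrcc5 and Brca1 ended without any array but 1, control replicate 3, 70 min replicate 1 and 70 min replicate 2 respectively (limma adjusted p from 0.0518 to 0.197). At 4 h Rad54l was lost without control replicate 1 or 4 h replicate 2, Brca1 without any control array or 4 h replicate 2, and Bard1 without any array but control replicate 3 (limma adjusted p from 0.0622 to 0.252). Without the 3 arrays of highest median 1 array of 70 min remains, so no count of calls is given for that setting.

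Some fibroblast and matrix markers were lower at 70 min, as were Polb and Xrcc1. At 4 h Xrcc1 was called lower and Polb was not. Over all genes 7.81% were called lower at 70 min and 1.77% at 4 h. The mean of the 12 fibroblast and matrix markers ran from 9.61 to 9.65 over the control arrays, 9.30 to 9.40 at 70 min, 9.49 to 9.57 at 4 h and 9.62 to 9.71 at 8 h. Of these 12, 4 fell at 70 min, Lum (-1.42), Dcn (-1.05), Mmp2 (-0.51) and Col3a1 (-0.41), while the list median was -0.10 and Col1a1 (0.01), Fn1 (0.07) and Tcf21 (0.24) were not called. At 4 h 1 of the 12 fell, Col3a1 (-0.18), a call lost without control replicate 3 or 4 h replicate 1 (limma adjusted p = 0.0607 and 0.0528). No cardiomyocyte marker was called against control with limma, and 2, 1 and 1 of the 10 had an unadjusted p under 0.05 at 70 min, 4 h and 8 h. Of 5 endothelial markers 1 was called, Tek at 70 min (-0.88), and of 4 smooth muscle and pericyte markers 1, Pdgfrb at 4 h (-0.49). Of 7 macrophage and leukocyte markers 6 had a mean under 5, the exception being Cd14 at 7.62, and 0 were called with limma (2, 1 and 0 at an unadjusted p under 0.05). Whether these differences have a part in the values of the members was not tested.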

How the data were processed

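Total RNA (100 ng a sample, 12 samples) went through a whole-transcript labelling kit onto one-colour arrays, per the labels. Per the submitters' processing notes, RMA was run in Affymetrix Expression Console (version 1.3.1.187); the deposited table has 36685 probes. Its values, from 1.19 to 13.63, were read as log2 expression: the authors' deposited table states no unit, so the scale rests on the values. RMA equalises the arrays, so a difference in total RNA is not seen, and it compresses folds near background. No filter and no genome build is named in the sources used here.

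Probes were named through the platform's annotation (19086 listed, 18511 with 1 symbol, 17599 unlisted), keeping for each gene the probe with the highest mean. limma 3.58.1 in R 4.3.3 fitted the 4 group means over 18166 genes and 12 arrays (eBayes with a trend, 8 residual degrees of freedom), two-sided, with Benjamini-Hochberg adjustment over all genes within each of 6 comparisons and calls under 0.05. The median SE was 0.131, and precision is limited by how few arrays there are. The calculation was tested on simulated data. Promoters came from RefSeq (GRCr8). Figures were drawn with matplotlib 3.10.9.

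The members and the lists were chosen with earlier results of these data known. All members were named. Of each list the called genes were named, at most the 6 with the largest change, or up to 2 as values where none was called. Poll, Lig1, Rpa1, Rrm2, Tyms and the uncalled mitosis and proliferation genes were added after their values were seen. Nudt1 and, of the markers, Col1a1, Fn1 and Tcf21 were also named though not called. Also named were the 3 genes most like each of the 3 members with the widest group means. Alternatives were the replicate number as a block, no trend, array weights, further quantile normalization, centring, the array median as a covariate, leaving out the 3 arrays of highest median or each array in turn, brighter genes only, the mean of a gene's probes and the compared groups alone; for the lists they were added after the data were seen. The main fit did not pair samples by replicate number. The 18 correlations of same-numbered arrays ran from -0.32 to 0.24, and 5 were over 0.1. With 3 arrays a group these correlations cannot exclude a weak pairing.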

Additional observations from a re-analysis of the deposited data

Results flagged for a closer look

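Effects of SIN-1 at different times were compared directly. In limma's test of the differences between treated times, Polb was higher at 4 h than at 70 min by 0.47 on the log2 scale (adjusted p = 0.0172, n = 3 a group), Polb was higher at 8 h than at 70 min by 0.70 (adjusted p = 0.000398), and Xrcc1 was higher at 8 h than at 70 min by 0.36 (adjusted p = 0.0268). In each of these the 3 arrays of the later time lay above the 3 arrays of 70 min. Of all genes, 21% at 4 h and 30.9% at 8 h did not overlap 70 min in either direction. Without the 3 arrays of highest median, 2 of which are from 70 min, the differences shrank to 0.17, 0.35 and 0.27. Only 1 array of 70 min then remains, assumed to vary like the other groups, so these sizes are given without a test. With all arrays kept and array medians as a covariate, Polb at 4 h against 70 min was 0.31 (limma adjusted p = 0.0742). Xrcc1 at 8 h against 70 min was then 0.24 (limma adjusted p = 0.234), and these calls ended. The 4 h Polb call also ended without 70 min replicate 2 or 3 or 4 h replicate 1 or 2. The Xrcc1 call ended without 70 min replicate 2 or 3 or 8 h replicate 1 or 2. The 8 h Polb call held with the covariate and when any single array was left out. Groups of 3 arrays were not tested for single outlying arrays.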

How the results depend on the processing

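Fold changes of the members under settings other than leaving out 1 array kept direction and side of the threshold in 556 cases, lost the call in 15, gained it in 2 (Apex1 from 70 min to 8 h) and changed sign in 27, none of them called; leaving out 1 array gave 314, 18, 0 and 28. The replicate number as a block changed no member call, with Polb, Xrcc1 and Apex1 at 70 min at adjusted p = 0.0014, 0.0032 and 0.0415; it gave 9 called genes at 8 h against 5 and, of the named list genes, ended the 70 min calls of Poll, Parp6 and Ercc1 (adjusted p = 0.0542, 0.0505 and 0.0591). Members called fell to 0 at 70 min and from 70 min to 8 h without the 3 arrays of highest median, at 4 h also with centring or only the compared groups, and from 70 min to 4 h also without a trend, with the covariate or with only the compared groups. Of all genes, leaving out those 3 arrays called 1046 at 70 min (main 2647), 318 from 70 min to 4 h and 1181 from 70 min to 8 h; the covariate called 1929 in the last (922 higher, 1007 lower; main 1736 and 1168). No trend called 339 at 4 h, 2 at 8 h and 315 from 4 h to 8 h; centring called 341 at 4 h (158 higher, 183 lower; main 378 and 321) and 300 from 4 h to 8 h; array weights called 37 at 8 h; only the compared groups called 763 from 70 min to 4 h and 330 from 4 h to 8 h. Leaving out 1 array gave 1751 to 3106 genes at 70 min, 373 to 575 at 4 h, 5 to 6 at 8 h, 885 to 1799 and 2003 to 3386 from 70 min to 4 h and 8 h, and 299 to 504 from 4 h to 8 h, and members from 2 to 2, 0 to 1, 0 to 0, 0 to 1, 1 to 2 and 0 to 0.

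Signs changed as follows, in the order quantile normalization, covariate and without the 3 arrays: Parg at 70 min 0.000498, 0.024 and 0.053, Xrcc1 from 70 min to 4 h -0.011, -0.065 and -0.0015, Lig3 there -0.034, -0.027 and -0.055, Parg from 70 min to 8 h -0.017, -0.068 and -0.062, Lig3 there -0.036, -0.040 and -0.065, and Lig3 from 4 h to 8 h -0.00196, -0.013 and -0.011, with array weights -0.000543. Ogg1 from 70 min became -0.053 at 4 h and -0.14 at 8 h without the 3 arrays, and -0.0031 at 8 h with quantile normalization. With array weights and centring Ogg1 at 70 min was -0.045 and -0.039 and Parg at 8 h 0.0029 and 0.015; centring put Parp1 from 70 min to 8 h at 0.024. Leaving out 1 array, against control, Ogg1 ran from -0.095 to 0.15 at 70 min and -0.044 to 0.17 at 8 h, Parp2 from -0.10 to 0.031 at 4 h and -0.059 to 0.14 at 8 h, Neil1 from -0.18 to 0.035 and -0.046 to 0.13, Mutyh from -0.033 to 0.12 and -0.13 to 0.026, and Parg at 8 h from -0.048 to 0.024. From 70 min to 4 h Xrcc1 ran from -0.061 to 0.087 and Lig3 from -0.022 to 0.063. From 4 h to 8 h Parp1 ran from -0.0035 to 0.029, Parp2 from -0.030 to 0.17, Apex1 from -0.18 to 0.012 and Lig3 from -0.011 to 0.026. From 70 min to 8 h Parp1 ran from -0.12 to 0.000782, Ogg1 from -0.083 to 0.15 and Lig3 from -0.018 to 0.068. The cause was not tested, beyond the fewer arrays some settings hold. Probes near background give only compressed folds.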
